A study of Mus musculus with 8 samples.

Results

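The primed epiblast genes Fgf5, Otx2, Pou3f1, Zic2, Zic5 and Sox3 were followed through the neuralization of mouse ES cells, and were taken as the probes that carry one of these names and are not control spots. They were 6 of the 36163 gene names on the array, each with 1 probe printed in 1 spot. The cells were of E14Tg2A, an established line of mouse ES cells of strain 129/Ola, and the stages were ES cells (day 0 in vitro), epiblast-like aggregates or ELA (day 2), progenitors of the neural lineage or NPC (day 6) and neural precursors or NPC/Neu (day 10). The labels name no transgene or engineered allele at any stage, and day 0 is the time of LIF withdrawal. At each stage 1 array was hybridized with total RNA, and 1 array with Ago-RNA, the RNA that was immunoprecipitated from the cytosolic fraction with the anti-pan Ago antibody 2A8. RNA of 3 experiments was pooled on each of the 8 arrays, so that each condition has 1 array, no value has a replicate and no test between stages could be made.

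Naive pluripotency is the state of ES cells and of the epiblast before implantation, and primed pluripotency that of the epiblast after it, when the cells become able to enter the germ layers. Fgf5 encodes a secreted fibroblast growth factor that signals through FGF receptors and the ERK kinases, and it is a classical marker of the epiblast after implantation. The other members encode transcription factors. Otx2 is a homeodomain factor of the epiblast and of the forebrain, Pou3f1 (also called Oct6) a POU domain factor, Zic2 and Zic5 zinc finger factors, and Sox3 an HMG box factor of the SoxB1 group. All of these transcription factors also act in the early neural plate. Argonaute (Ago) proteins hold miRNAs in the RISC complex, which pairs with mRNAs mainly through bases 2 to 8 of the miRNA, the seed.

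Positions are given on mm9, the build of the array annotation, with GENCODE vM1 gene models. Fgf5 lies on chr5:98683203-98706049 on the plus strand, and Pou3f1 on chr4:124334896-124337899 on the plus strand. Otx2 lies on chr14:49277354-49287319 on the minus strand, and Sox3 on chrX:58144545-58146605 on the minus strand. Zic5 (chr14:122856017-122864899, minus strand) and Zic2 (chr14:122874604-122879074, plus strand) are neighbours that start head to head with 9704 bases between them. The probes of Fgf5, Otx2, Pou3f1, Zic5 and Sox3 matched the 3′ UTR of an annotated transcript, 10, 501, 148, 2377 and 19 bases from its end, respectively. The Zic2 probe (chr14:122879296-122879355) lies on the plus strand past the annotated end of the gene, with 221 bases between them, and matched no annotated coding transcript. What it detects was therefore taken as Zic2 from the array annotation alone.

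Because Ago-RNA is read here, the seeds of the miRNAs best known in these cells are shown, with the places where their complement occurs in the 3′ UTRs of the members. The mature sequences are from RefSeq (GRCm38.p6), 5′ to 3′, with the seed in capitals. The first is a miRNA of ES cells, the second accumulates in differentiated cells, and the third and the fourth are abundant in neural cells.
miR-294-3p: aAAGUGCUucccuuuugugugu
let-7a-5p: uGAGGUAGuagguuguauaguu
miR-9-5p: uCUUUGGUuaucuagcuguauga
miR-125b-5p: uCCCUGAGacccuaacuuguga
The miR-294-3p seed is shared by miR-291a-3p, miR-295-3p, miR-302b-3p and miR-302d-3p. For miR-302a-3p and miR-124-3p, also on the list, no sequence was at hand. They were not searched under their own names, and their seeds were not compared with those printed.

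In the longest annotated 3′ UTR of each member, of 708 bases in Sox3 to 2538 bases in Zic5, the complement of the 4 seeds printed was found in Zic5 alone, once for miR-294-3p and once for miR-9-5p. The corresponding windows of the Zic5 3′ UTR (GENCODE vM1), with the match in capitals, start 8 bases before it.
Zic5, match to miR-294-3p: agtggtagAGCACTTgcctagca
Zic5, match to miR-9-5p: caaagcacACCAAAGaaatatat
The match to miR-294-3p covers bases 307 to 313 of the 3′ UTR and the match to miR-9-5p bases 1834 to 1840. Over the 19915 genes with an annotated 3′ UTR, 13.4% hold the letters AGCACTT, 11.4% hold ACCAAAG, 8.81% hold CTACCTC (let-7a-5p) and 12.6% hold CTCAGGG (miR-125b-5p), with only the mRNA strand read. The median 3′ UTR of these genes has 893 bases. The 281 bases from the annotated end of Zic2 to the end of its probe held none of these letters. A match is a stretch of letters and not a site shown to be used, and the Ago enrichment of the members was not tested against it.

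On every array all 6 probes were well above background by the criterion of the scanner software, and none was saturated. Over all spots, the ES Ago-RNA array had an upper quartile of the mean signal of 3039, and the other arrays had 1060 to 1774, and between 53.4% and 61.2% of the spots per array were well above background. ES and NPC arrays lay in row 2 of the slide and ELA and NPC/Neu arrays in row 1, so that row and stage cannot be told apart in a comparison of consecutive stages, whereas Ago-RNA and total RNA of a stage lay in the same row. The spot of Zic5 on the ELA total RNA array was marked as irregular and was left out, so that Zic5 has no value for total RNA in ELA. Signals are log2 values after background correction and quantile normalization. As a scale for technical noise, each difference is given with its spot SD, the SD of the same difference over spots of 399 probes that were printed in 10 spots each. The spot SD covers noise within an array only, and is larger for dim probes: for the ES–ELA difference of total RNA it was 0.174 over these probes, 0.234 for those under 9 on the log2 scale and 0.061 for those at 12 and above.

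Fgf5, the ligand, had the widest range of the members. Its total RNA signal was 11.96 (ES), 14.78 (ELA), 7.48 (NPC) and 7.89 (NPC/Neu) (log2). ELA thus stood highest and ES next, with both later stages far below them. Between ES and ELA total RNA was higher by 2.81 ± 0.174 (spot SD), or 7.03-fold, a difference reached by 26 of 24540 gene names that were well above background, Fgf5 included. Between ELA and NPC it was 157-fold lower, a log2 difference of -7.30 ± 0.155, and 4 of 24901 gene names, Fgf5 included, were as low or lower. The size of this step is imprecise, since the mean spot signal of Fgf5 in NPC total RNA was 194 before normalization. The log2 difference was -8.27 to -7.08 over the processing alternatives, and its spot SD for dim probes was 0.208. The NPC and NPC/Neu signals, the lowest of the 4, differed by 0.40 ± 0.126.

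The Ago-RNA signal of Fgf5 followed the same order up to NPC, at 11.51 (ES), 15.44 (ELA), 8.55 (NPC) and 8.43 (NPC/Neu). From ES to ELA it was 15.2-fold higher (3.92 ± 0.136), a step reached by 7 of 24667 gene names with Fgf5 included, and it was therefore wider than the step of total RNA. From ELA to NPC it was 118-fold lower. The NPC and NPC/Neu values differed by less than the spot SD.

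Otx2 was bright on every array and varied least. Its total RNA signal was 15.53 (ES), 16.06 (ELA), 15.91 (NPC) and 15.97 (NPC/Neu), and its Ago-RNA signal was 15.53, 15.92, 15.78 and 15.49 in the same order. ES was the lowest of the total RNA values, and ELA the highest by a small margin. Total RNA was 1.45-fold higher in ELA than in ES (0.53 ± 0.174), which 3087 of 24540 gene names reached. The ELA–NPC difference (-0.16 ± 0.155) was about the size of the spot SD and the NPC–NPC/Neu difference (0.07 ± 0.126) was within it. Between 2.64% and 3.56% of the probes on an array were brighter than Otx2. Its mean spot signal before normalization was 45917 to 96634, and whether a probe this bright still reports the full size of a difference was not tested. The same limit holds for the brightest spots of Pou3f1 (95683, ES Ago-RNA) and Sox3 (86876, NPC/Neu Ago-RNA).

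Pou3f1 was high at both pluripotent stages and lower afterwards. Its total RNA signal was 14.65 (ES), 15.47 (ELA), 11.52 (NPC) and 13.09 (NPC/Neu). ELA stood highest, and NPC was the low point. From ES to ELA the difference was 0.82 ± 0.174, or 1.77-fold. From ELA to NPC total RNA was 15.5-fold lower (-3.95 ± 0.155), with 130 of 24901 gene names as low or lower. At NPC/Neu it was 2.96-fold above NPC (1.57 ± 0.126) but remained 1.56 below ES on the log2 scale. The Ago-RNA signal had the same order of stages, at 15.52, 15.77, 12.18 and 13.62.

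Zic2 was higher at every later stage than in ES. Its total RNA signal was 10.01 (ES), 12.52 (ELA), 11.67 (NPC) and 12.31 (NPC/Neu). The step from ES to ELA was 5.69-fold (2.51 ± 0.174), reached by 47 of 24540 gene names with Zic2 included. The ELA–NPC difference was -0.85 ± 0.155 and the NPC–NPC/Neu difference 0.64 ± 0.126, so that ELA and NPC/Neu held the higher values and NPC an intermediate one. Its Ago-RNA signal did not have this dip. It was 11.34 (ES), 12.78 (ELA), 12.99 (NPC) and 15.36 (NPC/Neu). The step from NPC to NPC/Neu was 5.15-fold in Ago-RNA (2.36 ± 0.147) and 1.56-fold in total RNA.

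Sox3 had a profile close to that of Zic2. Its total RNA signal was 12.17 (ES), 14.85 (ELA), 14.20 (NPC) and 14.67 (NPC/Neu). ES was again the lowest stage, 6.44-fold below ELA (2.69 ± 0.174), and 36 of 24540 gene names with Sox3 included had a step of this size or more. The later differences were -0.66 ± 0.155 and 0.47 ± 0.126. In Ago-RNA the signal was 13.30, 14.62, 14.73 and 16.76, and the last step was 4.11-fold (2.04 ± 0.147) against 1.39-fold in total RNA. Over the 8 arrays, with each gene centred on its own mean, Zic2 and Sox3 lay 0.35 apart as a root mean square distance on the log2 scale. They were the closest of the 15 pairs of members, whose distances reached 3.53 for Fgf5 and Zic2.

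Zic5, the neighbour of Zic2, had a narrow range over the 7 arrays with a value, which leave out total RNA in ELA. Its total RNA signal was 9.46 in ES, 9.85 in NPC and 9.40 in NPC/Neu, with no value in ELA. Its Ago-RNA signal was 10.43 (ES), 11.57 (ELA), 10.58 (NPC) and 10.11 (NPC/Neu), and ELA stood highest, 2.20-fold above ES (1.14 ± 0.136) and 1.98-fold above NPC. With the irregular spot kept, an alternative chosen after seeing the data, total RNA of Zic5 in ELA was higher than in ES by 2.73 on the log2 scale, and the ELA–NPC difference was -2.35.

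**Figure D1:**
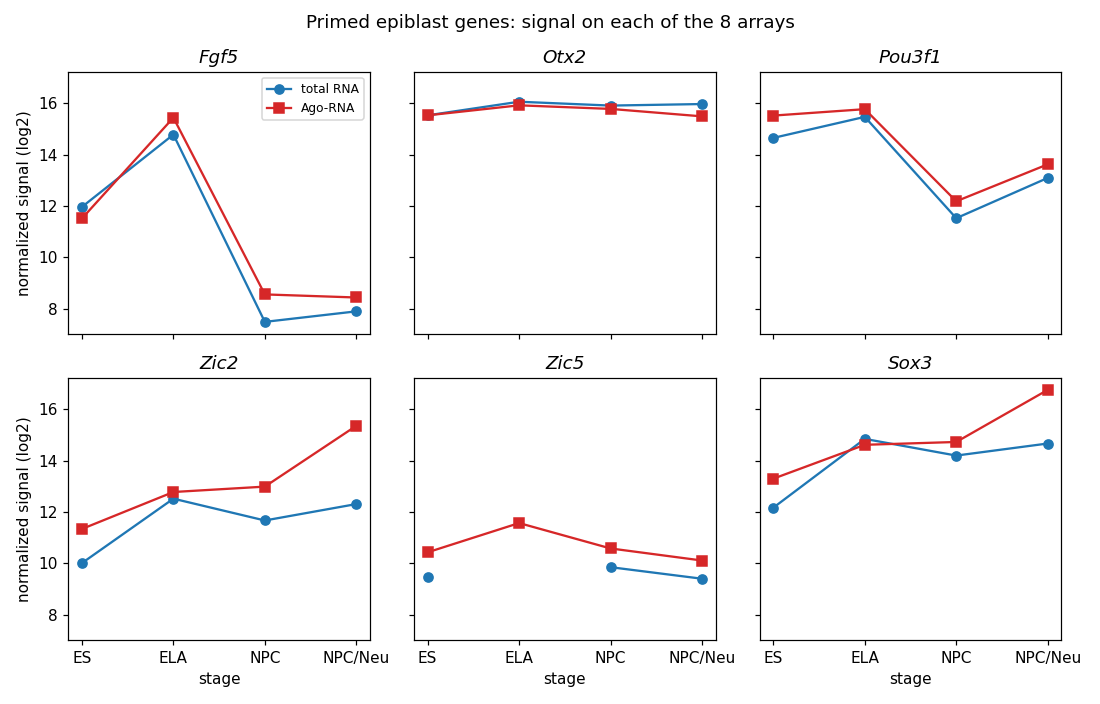
Normalized signal (log2, y axis) of the 6 genes at the 4 stages (x axis), with total RNA as blue circles and Ago-RNA as red squares, 1 array per point. ELA holds the highest total RNA signal of Fgf5, Otx2, Pou3f1, Zic2 and Sox3, Zic5 has no total RNA value in ELA, and in NPC/Neu the Ago-RNA signal of Zic2 (15.36) and Sox3 (16.76) stands above total RNA.

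At the ES–ELA transition, all 5 members with a value had more total RNA in ELA, with a median log2 difference of 2.51 beside 0.0 over all 24540 gene names. Of these, 3 of 5 (Fgf5, Sox3 and Zic2) were at least 1 higher, beside 4.41% of all gene names, and the same 3 were past the threshold of 2.5 used in the methods, beside 0.196%. Zic2 lies at the threshold, and its difference was 2.41 to 2.71 over the processing alternatives. At the ELA–NPC transition all 5 were lower in NPC, Otx2 by about the spot SD, and 2 of 5 (Fgf5 and Pou3f1) were at -1 or lower, beside 9.55% of all gene names. Both were also past -2.5, beside 1.90%. From NPC to NPC/Neu, 1 of 6 (Pou3f1) was at least 1 higher, beside 5.37%. Over the whole course from ES to NPC/Neu, Sox3 (2.50) and Zic2 (2.30) ended at least 1 higher, beside 16% of gene names, Fgf5 (-4.08) and Pou3f1 (-1.56) at -1 or lower, also beside 16%, and Otx2 (0.44) and Zic5 (-0.06) ended between these limits. The 5 members with a value thus had their highest value in ELA, which stood little above NPC/Neu for Otx2, Zic2 and Sox3, a margin with no spot SD of its own. Their course between these stages differed. In bulk RNA, fewer cells that express a gene and less RNA per cell cannot be told apart.

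**Figure D2:**
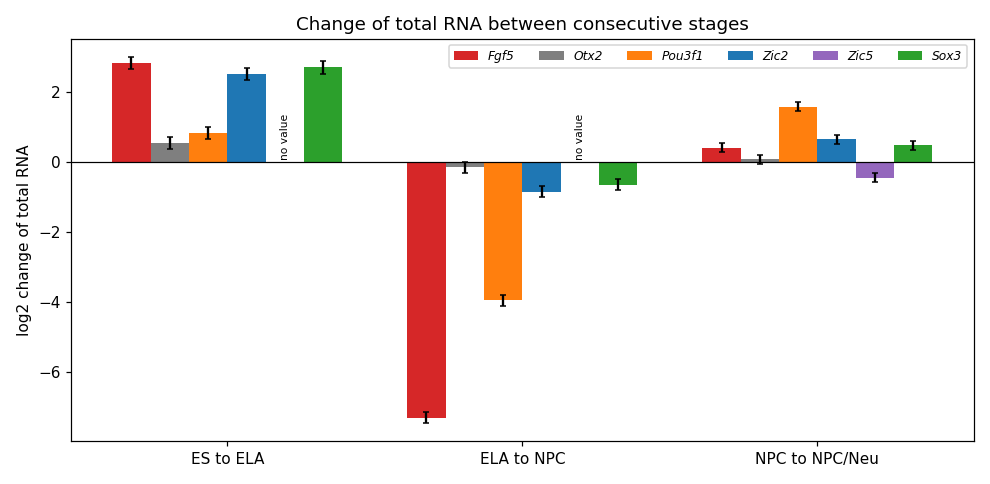
Log2 change of total RNA (y axis) of each gene between consecutive stages (x axis groups), 1 array against 1 array, with the spot SD as error bar. The bars of Fgf5, Zic2 and Sox3 reach 2.51 to 2.81 from ES to ELA, and from ELA to NPC the bars of Fgf5 (-7.30) and Pou3f1 (-3.95) stand below all others.

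Ago enrichment, E, is the log2 Ago-RNA signal minus the log2 total RNA signal of a stage, so that 0 is equal normalized signal on both arrays. All members were above the threshold of 7.84 for Ago-RNA signal, set 3 SD above the mean of the dimmer component in a fit of 2 Gaussians to the Ago-RNA arrays, at all 4 stages. Passing it is common, since 37.9% of all probes were brighter than Fgf5 (8.43) on the NPC/Neu Ago-RNA array. Since total RNA was not limited to the cytosol and control immunoprecipitations were not used here, E is a ratio of 2 RNA samples and not a measure of binding alone.

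In ES cells, E was highest for Zic2 (1.33), Sox3 (1.13), Zic5 (0.97) and Pou3f1 (0.87), each ± 0.129 (spot SD). It was 0.00 for Otx2 and -0.45 for Fgf5, the only member with less Ago-RNA than total RNA signal by more than the spot SD, a sign that was lost (0.01) when each kind of RNA was normalized on its own. Of the 6, 2 were at 1 or above, beside 9.37% of all gene names, and 4 were when each kind of RNA was normalized on its own. In ELA the values of the members drew together. They were 0.66 for Fgf5, 0.30 for Pou3f1, 0.25 for Zic2, -0.15 for Otx2 and -0.24 for Sox3, each ± 0.150, where Sox3 was at 0.14 when each kind of RNA was normalized on its own, and none of 5 reached 1, beside 3.80% of gene names. In ELA, where total RNA of these genes was highest, E of Zic2, Sox3 and Pou3f1 was at its lowest of the 4 stages, and that of Otx2 and Fgf5 was not. Total RNA is subtracted in E, so that the 2 are not independent. E of all gene names was also narrower in ELA, with 3.32% at -1 or lower beside 5.79% to 11.6% at the other stages. Naive pluripotency genes had less total RNA in ELA. Over the same 11 genes, their median change of E from ES to ELA was -0.32, with 8 below 0 and 3 above. The median over all gene names was -0.02. What the subtraction of total RNA adds to these values was not tested.

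In NPC, E was 1.32 for Zic2, 1.07 for Fgf5, 0.73 for Zic5, 0.65 for Pou3f1, 0.53 for Sox3 and -0.12 for Otx2, each ± 0.134. Zic2 and Fgf5 were the 2 of 6 at 1 or above, beside 5.33% of gene names, and with that normalization there were 4. The Fgf5 value rests on a total RNA signal of 7.48, with the spot SD of dim probes at 0.185. In NPC/Neu, Zic2 and Sox3 stood apart from the other members. E was 3.04 for Zic2, an 8.24-fold higher normalized signal in Ago-RNA, and 2.10 for Sox3, or 4.28-fold. It was 0.70 for Zic5, 0.55 for Fgf5, 0.53 for Pou3f1 and -0.48 for Otx2, each ± 0.129. Again 2 of 6 members were at 1 or above, beside 10.9% of gene names, and the same 2 were past 2, beside 1.18%. Only 13 of 24210 gene names had an E as high as Zic2 or higher, Zic2 included, and 209 as high as Sox3 or higher.

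**Figure D3:**
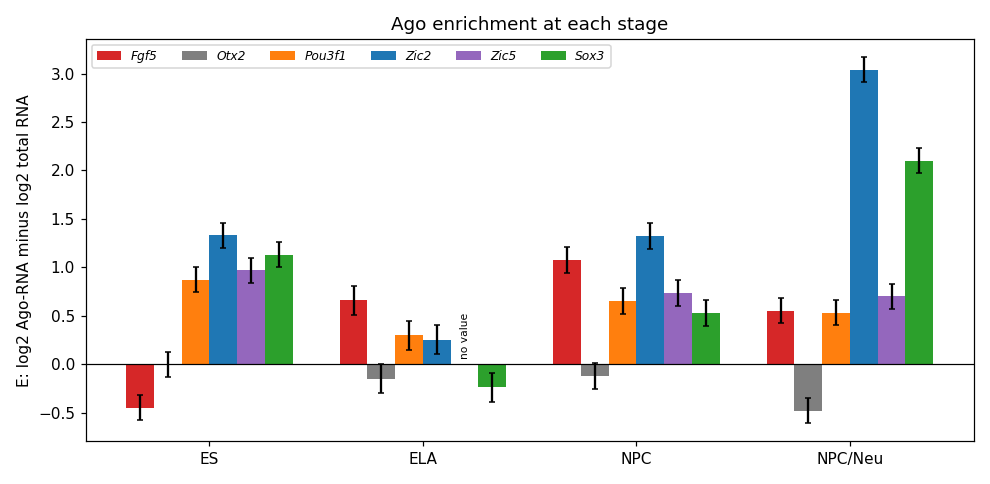
Ago enrichment E (log2 Ago-RNA minus log2 total RNA, y axis) of each gene at the 4 stages (x axis groups), with the spot SD as error bar and 1 array of each kind per stage. E of Zic2 (3.04) and Sox3 (2.10) in NPC/Neu stands above the other bars, Otx2 has the lowest bar in NPC and NPC/Neu, and Zic5 has no value in ELA.

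Between consecutive stages, the change of E divided the members. From ES to ELA it was -1.37 ± 0.192 for Sox3, -1.07 for Zic2, -0.57 for Pou3f1 and -0.15 for Otx2, whereas it was 1.11 for Fgf5. The members at -1 or lower were 2 of 5, beside 6.05% of gene names, and 1 of 5 was at 1 or higher, beside 7.05%. When each kind of RNA was normalized on its own, Zic2 (-0.96) and Fgf5 (0.97) were no longer past these limits. Sox3 and Zic2 thus had a larger step in total RNA than in Ago-RNA, and Fgf5 the reverse. From ELA to NPC the change was 1.07 ± 0.200 for Zic2, the only one of 5 at 1 or higher, beside 2.56% of gene names. With the processed signal, Fgf5 (1.01, quantile normalized) or Sox3 (1.02, scaled to the 75th percentile) passed 1 as well. As reported, the change was 0.76 for Sox3, 0.41 for Fgf5, 0.35 for Pou3f1 and 0.02 for Otx2. From NPC to NPC/Neu it was 1.72 ± 0.173 for Zic2 and 1.57 for Sox3, 2 of 6 members at 1 or higher beside 2.38% of gene names. The other members changed by -0.53 for Fgf5, -0.36 for Otx2, -0.12 for Pou3f1 and -0.03 for Zic5.

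An mRNA is called released when E falls from at least 2 to at most 0.5 between stages with a change of at least 1.5, and loaded when it moves the other way, for a probe above the Ago-RNA threshold. By these limits no member was released or loaded at any transition, beside 0.192% of all probes released and 0.134% loaded from ES to ELA, 0.0869% and 0.0290% from ELA to NPC, and 0.0289% and 0.0361% from NPC to NPC/Neu. Sox3 came nearest. Its E in NPC (0.53) lay just past the limit of 0.5, while its E in NPC/Neu (2.10) and its change (1.57) passed, and with a limit of 1.2 it was loaded, beside 0.0938% of probes. Its change was 1.33 when each kind of RNA was normalized on its own, and after scaling of the processed signal to its 75th percentile the change was 1.26 and its E in NPC/Neu 1.88, under the limits for a call. Zic2 passed the limits for E in NPC/Neu and for the change, with an E of 1.32 in NPC that exceeded both limits.

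Paralogs of the members were taken from a fixed list of 12. Of the 8 measured from ES to ELA, 1 (Zic1, 1.44) was at least 1 higher in total RNA, beside 4.41% of all gene names. Fgf4, the FGF ligand of naive ES cells, had a total RNA signal of 15.50 (ES), 14.30 (ELA), 7.64 (NPC) and 9.20 (NPC/Neu), so that it was lower in ELA while Fgf5 was higher, and both were low in NPC. Sox2, of the SoxB1 group like Sox3, stayed between 13.13 and 13.87 at all stages. The Fgf6 probe that was well above background lay between 8.96 and 9.62 in total RNA, and the other Fgf6 probe was not well above background on any array.

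From ELA to NPC, 8 of the 12 paralogs were at least 1 higher, beside the 10.3% of all gene names, and 1 (Fgf4) was at -1 or lower, beside 9.55%. Pou3f2, a neural relative of Pou3f1, was not well above background in ES and ELA, and its total RNA in NPC (10.32) was at least 10.2-fold higher than in ELA by the lowest signal that passed that criterion. For the 2 probes of Zic4 this bound was at least 10.9-fold and at least 15.5-fold, for Otx1 at least 3.36-fold and for Crx at least 2.17-fold. Pou3f3 went from 7.62 in ELA to 10.13 in NPC, while Pou3f4 was at 7.32 in ELA and not well above background in NPC total RNA. The probes of Zic1 differed: one went from 8.55 in ELA to 16.44 in NPC, and the other, with no value in NPC, from 11.74 in ELA to 12.35 in NPC/Neu. Those of Sox1 differed as well, with 8.42 and 12.06 in ELA and NPC for one and 8.36 and 9.11 for the other.

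The other genes of the primed state were checked with a list of 16, all of them measured. From ES to ELA, 5 of 16 were at least 1 higher, beside the 4.41% of all gene names, 2 were at -1 or lower, beside 4.54%, and the median was 0.57. Sall2, a zinc finger factor, was highest (1.66), and the de novo DNA methyltransferases Dnmt3a (1.53) and Dnmt3b (1.32) were also higher. Nodal, a TGF-beta ligand of the epiblast, was lowest (-3.71). From ELA to NPC, 5 of 16 were at -1 or lower, beside the 9.55% of all gene names, and 4 at 1 or higher, beside 10.3%. Foxd3, a forkhead factor of pluripotent cells, was not well above background in NPC and at least 57.3-fold lower there than in ELA, and Wnt3, not well above background in ELA, was at least 12.7-fold higher in NPC.

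Naive pluripotency genes went the other way at the ES–ELA transition. All 11 measured genes of the list were at -1 or lower in total RNA, beside 4.54% of all gene names, with a median of -2.37. They ranged from Nanog (-1.05) to Prdm14, which was not well above background in ELA and at least 15.6-fold lower there. The 4 core pluripotency factors stayed within 1 from ES to ELA, from Sox2 (-0.63) to Lin28a (0.51). Of all gene names, 4.41% were at least 1 higher and 4.54% at -1 or lower. From ELA to NPC, 3 of 4 were at -1 or lower, beside 9.55% of all gene names. Pou5f1 (Oct4) was lowest there (-6.78) and Sox2 highest (0.52). Of the neural progenitor markers, 3 of 6 were at least 1 higher in ELA than in ES already, beside 4.41% of all gene names, with Fabp7, a fatty acid binding protein of radial glia, highest (3.11). All 6 were at least 1 higher in NPC/Neu than in ES, beside 16% of gene names. In ELA, of the markers of other lineages, 0 of 3 measured mesoderm genes, 1 of 3 measured endoderm genes (Foxa2, 1.25) and 0 of 3 measured trophoblast genes were at least 1 higher than in ES, beside the same 4.41%. Of the neuron markers, 1 of 5 was at least 1 higher in ELA than in ES (Elavl3, 1.34), beside 4.41%, and 1 was at -1 or lower (Nefl, -1.86), beside 4.54%. In NPC/Neu 5 of 5 were at least 1 higher than in ES, beside 16%. The part of neural cells in the later values of Zic2, Sox3 and Otx2 was not tested.

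The genes that read FGF ligands, FGF5 among them, were described as receptors, cascade and feedback. From ES to ELA, 0 of 4 FGF receptors and 0 of 11 adaptors and kinases of the ERK cascade differed by 1 or more. Of all gene names, 4.41% were at least 1 higher and 4.54% at -1 or lower. The extremes were at -0.19 (Fgfr3) and 0.79 (Fgfr1) for the receptors and at -0.10 (Braf) and 0.66 (Mapk3) for the cascade. Among 12 feedback regulators and targets, 2 were at least 1 higher, beside the same 4.41%, the highest being the immediate early gene Egr1 (1.49). At -1 or lower was 1, Spry4 (-1.18), an inhibitor of receptor tyrosine kinase signals, beside 4.54%. From ELA to NPC, Fgf5 was 157-fold lower, and Fgf4 was lower by 6.66 on the log2 scale. There 5 of the 12 feedback regulators and targets were at -1 or lower, beside the 9.55% of all gene names, with the phosphatase Dusp4 lowest (-3.54). In the cascade 0 of 11 differed by 1 or more. Of the receptors, 2 of 4 were at least 1 higher, beside the same 10.3%, with Fgfr3 highest (2.63). From NPC to NPC/Neu, 9 of the 12 feedback genes and targets were at least 1 higher, beside the 5.37% of all gene names, with Spry1 highest (2.62). Fgf5 was higher by 0.40 and Fgf4 by 1.56 at this step. Whether these genes follow either ligand was not tested. At this transition 1 of 4 receptors was at -1 or lower (Fgfr2, -1.16), beside 3.96% of all gene names, and 0 of 11 genes of the cascade differed by 1 or more, with Map2k1 lowest (-0.72).

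**Figure D4:**
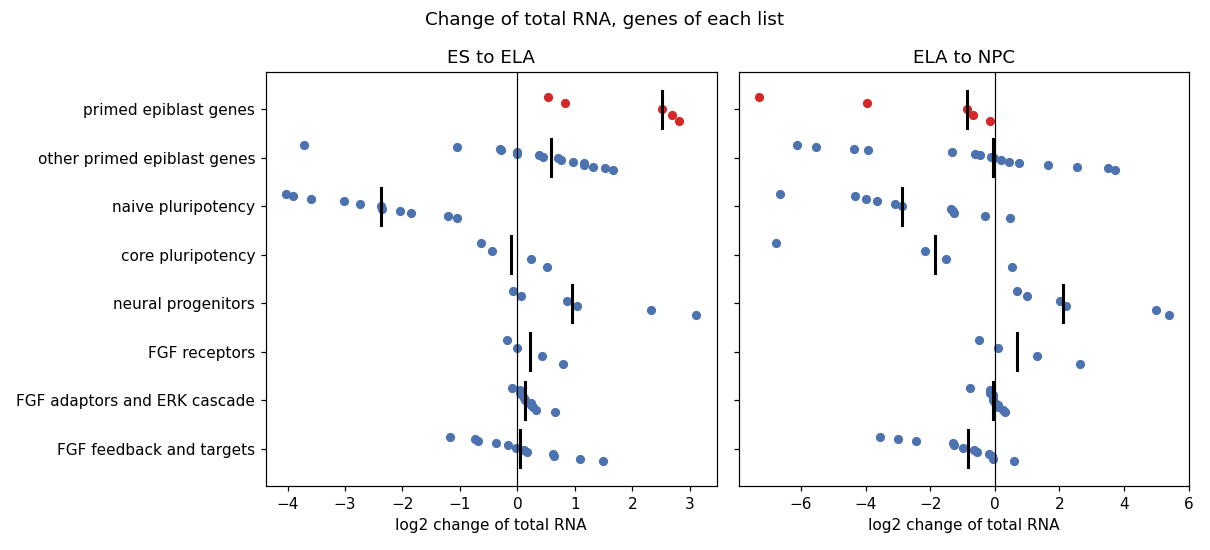
Log2 change of total RNA (x axis) from ES to ELA (left) and from ELA to NPC (right), with 1 point per gene, genes ordered by value within each list (y axis), red points for the primed epiblast genes and a black bar at the median of the points. From ES to ELA the 5 red points lie right of 0 and all 11 naive pluripotency genes left of -1, and genes not well above background are drawn at their measured values.

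The genes with the pattern most like that of each member were found by the root mean square distance over the 8 arrays, with each gene centred on its own mean, among 27990 gene names. Nearest to Zic2 were Dnmt3a (0.44), Adamts15 (0.50), a secreted metalloprotease, and Sall2 (0.52), all farther from it than Sox3 (0.35). Nearest to Sox3 were Crtc3 (0.38), a CREB coactivator, Adamts15 (0.39) and Sall2 (0.39). Both lists share Adamts15 and Sall2. E is computed from the same arrays, so that a like course of E follows from this choice.

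For Fgf5, whose own spread was 2.94, the nearest were NAP111842-1 (0.56), a name of the array design, the gluconeogenic enzyme gene Fbp1 (0.60) and the kinase gene Pim2 (0.62), with total RNA changes from ELA to NPC of -6.20, -5.73 and -5.89. For Pou3f1 the nearest were E130309D14Rik (0.39), the metal transporter gene Slc39a14 (0.43) and Sned1 (0.45). For Otx2, whose own spread was 0.21, they were Sncb (0.06), TC1642954 (0.08) and Ppp2r5d (0.09). For Zic5 they were Pip4k2a (0.17), St6gal2 (0.19) and Arhgef26 (0.19), over the 7 arrays with a Zic5 value. Distances are smaller for genes that vary little, and they rank likeness within these 8 arrays only.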

How the data were processed

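The authors deposited spot intensity from single-color Agilent arrays (mm9) as written by Feature Extraction (10.7.3.1 per the file headers, 9.1 in the submitters' processing notes), not normalized between arrays. The labels state that 50 ng RNA was labeled, and the paper's methods a larger amount. Mean and local background intensity were corrected here with normexp (offset 50) in limma 3.58.1 (R 4.3.3), irregular spots were left out, and quantile normalization over the 8 arrays followed on the log2 scale. Repeated spots were averaged per probe, and probes per gene name. The Ago-RNA threshold was fitted with mclust 6.1.1. Percentages of gene names are over those with a probe well above background on at least 1 array compared. Other values were computed with Python 3.11.15 and pandas 2.3.3, and scripts were tested on simulated data. The number of arrays limits the precision, and no p-value is given.

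Named genes were the members, the highest and lowest gene of each list and the paralogs, of which 2 are not reported here, and the 3 genes nearest in pattern to each member. Dnmt3a and Dnmt3b were also named beside their list, and Foxa2, Elavl3 and Pou5f1 beside theirs. Members and lists were chosen with earlier results of these data known. Alternatives were offsets of 16 and 0, the processed intensity (quantile normalized or scaled to the 75th percentile), normalization within each kind of RNA, the brightest probe, only probes well above background, all gene names, a limit of 1.2 for E, and irregular spots kept.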

Additional observations from a re-analysis of the deposited data

Results flagged for a closer look

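The sign of E differed between stages for Fgf5 and Sox3 by more than the spot SD. For Fgf5, E was -0.45 in ES and 0.66 in ELA. For Sox3 it was 1.13 in ES, -0.24 in ELA and 0.53 in NPC. With 1 array per condition these differences were not tested, and both negative values lost their sign when each kind of RNA was normalized on its own.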

How the results depend on the processing

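No paired analysis was possible because each condition has 1 array and the labels give no replicate number that is shared between groups, and no replicate could be left out. Of 55 values of the members, 2 moved by more than the spot SD with an offset of 16, 4 with an offset of 0, 9 with the processed intensity quantile normalized, 28 with it scaled to the 75th percentile, and 22 with normalization within each kind of RNA, where 2 more that lay beyond the spot SD changed sign: E of Fgf5 in ES was 0.01 and E of Sox3 in ELA was 0.14. Of values within or near the spot SD, scaling gave Otx2 a total RNA change of -0.30 from NPC to NPC/Neu and a change of E of 0.10 from ES to ELA, and Pou3f1 a change of E of 0.10 from NPC to NPC/Neu, and normalization within each kind gave Otx2 an E of 0.08 in NPC, each with the sign turned. The count of members with E of at least 1 in ES was 2 to 4 over the alternatives, in NPC 2 to 4 and in NPC/Neu 2 to 3. Scaling to the 75th percentile also shifted the median E of all gene names to -0.34 in ES, and normalization within each kind to 0.16 in NPC/Neu. The median change of E of the members from ELA to NPC was 0.68 with an offset of 0, 0.83 with the processed intensity quantile normalized and 0.68 with it scaled. Their median total RNA change from ES to ELA was 2.69 and 2.71 in the last 2 settings. Quantile normalization of the processed intensity gave a median E of 0.79 in NPC/Neu. Scaling gave a median total RNA change of -1.05 from ELA to NPC, a median E of 0.75 in ES and a median change of E of -0.32 from ES to ELA. Normalization within each kind gave a median E of 1.23 (ES), 0.55 (ELA), 1.06 (NPC) and 0.98 (NPC/Neu). With irregular spots kept, the medians were -1.59 for total RNA from ELA to NPC, 0.07 for E in ELA and -0.80 for the change of E from ES to ELA, and E of Zic5 in ELA was -0.62. With a limit of 1.2 for E, 1 member probe was loaded from NPC to NPC/Neu. The cause was not tested. E of Zic2 in NPC/Neu was 3.03 to 3.43 over the alternatives, that of Sox3 1.88 to 2.27, and the total RNA change of Fgf5 from ES to ELA 2.80 to 2.99.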
